A study of Mus musculus with 35 samples.

Results

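The complement genes measured here were C3, C4b, C2, Cfb, C1ra, C1s1, Serping1, Cd55 and Masp1, 9 of the 55487 genes listed in each of 4 RNA-Seq count tables from primary mouse cardiac fibroblasts (CFs) and mouse hearts. They were taken by gene symbol, and each symbol occurred once in every table. In Scrambled CFs, 8 of the 9 stood at a higher level in the table of TGF-β–treated cells than in the table of untreated cells, with Cfb 45.0-fold and C3 21.9-fold higher, and Masp1 stood 2.1-fold lower. Over all genes tested there, 12.5% were called higher and 9.07% lower, by the thresholds given below. With the 2 siRNAs against IAMP, Cd55 was 4.29-fold higher with one siRNA and 1.11-fold lower with the other in untreated CFs, while C3 lay above Scrambled with both. In hearts of IAMP-KO mice, 0% of the 16675 genes tested in edgeR passed the threshold against heterozygous controls, and no tested complement gene did.

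Complement is a cascade of plasma proteases and surface regulators that marks microbes and damaged cells. The classical pathway runs through the proteases C1r and C1s, of which C1s cleaves C4 and C2. The lectin pathway runs through proteases of the MASP family, and the alternative pathway uses factor B. All of these pathways converge on cleavage of C3. The liver supplies most complement in plasma, and fibroblasts are among the cells that also make components locally, together with the inhibitors that hold the cascade back.

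On GRCm38, C3 (chr17:57203970-57228136), C4b (chr17:34728380-34743882), C2 (chr17:34862604-34898265) and Cfb (chr17:34856374-34862518) lie on chromosome 17, all on the minus strand. The neighbours C1ra (chr6:124512405-124523443), plus strand, and C1s1 (chr6:124530345-124542359), minus strand, lie on chromosome 6. The remaining genes, Serping1 (chr2:84765387-84775444), Cd55 (chr1:130439027-130462744) and Masp1 (chr16:23449417-23520815), are on the minus strand. Counts were per gene, and reads could have been split between C4b and C4a, C1ra and C1rb, C1s1 and C1s2 or Cd55 and Cd55b, which are close copies.

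IAMP is a micropeptide encoded in mice by 4930523C07Rik, and the study asked how its loss alters CFs and hearts. Primary CFs of adult mice received a Scrambled siRNA, IAMP-siR-1 or IAMP-siR-2, with 3 libraries for each siRNA in each of 3 tables, so that 9 untreated, 9 IL-17 and 9 TGF-β libraries gave 27 in all. Cells of the IL-17 table had 24 h of siRNA followed by 24 h with the cytokine, and no times were found for untreated and TGF-β cells. Whole hearts came from C57BL/6 mice, 8 weeks old and under basal conditions, that were heterozygous (Het, 4 hearts) or homozygous (KO, 4 hearts) for a frameshift in IAMP made by CRISPR-Cas9, so the controls carried 1 edited allele. Nothing states that the CF libraries of a group came from separate isolations or cultures, and p values therefore measure the spread between these libraries, which may be technical.

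CF libraries held 104139670 to 119232309 estimated counts and hearts held 23497027 to 23857313 counts. IAMP transcript was 23.6 ± 2.01 CPM (counts scaled to library size, SD, n = 3) in untreated Scrambled CFs, 3.01 ± 0.491 with IAMP-siR-1 and 1.83 ± 0.0658 with IAMP-siR-2. In the same order it was 18.9 ± 2.02, 2.61 ± 0.272 and 1.73 ± 0.0996 CPM in IL-17 cells. In TGF-β cells it was 20.6 ± 2.00, 4.34 ± 0.302 and 3.26 ± 0.430 CPM. In hearts it was 17.0 ± 1.27 CPM in Het and 16.0 ± 0.938 in KO (SD, n = 4), so transcript level does not check a frameshift genotype. The 6 fibroblast markers Col1a1, Col1a2, Dcn, Lum, Pdgfra and Tcf21 averaged at least 1 CPM in every CF group and summed to between 7754 and 16441 CPM in a library. Macrophage markers summed to 57.2–61.2 CPM in untreated Scrambled CFs and 153–161 CPM in TGF-β Scrambled CFs, and cardiomyocyte markers to at most 98.5 CPM in any CF library. Only 1 of the 6 cardiomyocyte markers, Tnnt2, averaged at least 1 CPM in any CF group. Transcripts of hepatocytes, a major source of complement, stood apart in 5 CF libraries. These were Scrambled untreated replicate 3, Scrambled IL-17 replicates 1 and 3, IAMP-siR-1 TGF-β replicate 2 and IAMP-siR-2 TGF-β replicate 3, where 6 liver markers led by Alb summed to 24.6–96.6 CPM, against at most 1.57 CPM in the other 22. Where leaving out these 5 libraries moved a printed siRNA or stimulus value across the adjusted p threshold or changed a call, the value without them is given beside it. In comparisons with Scrambled IL-17 cells, 1 Scrambled IL-17 library then remains, and only the size of the value is given.

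Per kilobase of exon, Serping1 was the most abundant complement transcript in every CF group. Serping1 encodes C1 inhibitor, which blocks C1r, C1s and the MASPs. In untreated Scrambled CFs it stood at 165 ± 12.4 RPKM (CPM per kilobase of exon, SD, n = 3). C3, the shared centre of the cascade, followed at 9.66 ± 2.14 RPKM, and Cd55, a membrane protein that dissociates the enzymes that cleave C3, at 9.53 ± 0.599 RPKM, and these 2 did not differ beyond their spread. Masp1 was at 7.73 ± 0.0592, C1ra at 6.36 ± 0.370 and C1s1 at 4.32 ± 0.194 RPKM. C4b at 2.74 ± 0.397, C2 at 1.78 ± 0.126 and Cfb at 1.21 ± 0.162 RPKM were the lowest. In TGF-β Scrambled CFs the order was Serping1 (857 ± 33.7 RPKM), C3 (213 ± 18), C1ra (64.2 ± 1.71), Cfb (55.0 ± 3.01), C1s1 (46.5 ± 0.839), Cd55 (25.9 ± 1.41), C4b (15.9 ± 1.83), C2 (12.8 ± 0.599) and Masp1 (3.72 ± 0.340). Cfb thus moved from the last place to the fourth and Masp1 from the fourth to the last.

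**Figure D1:**
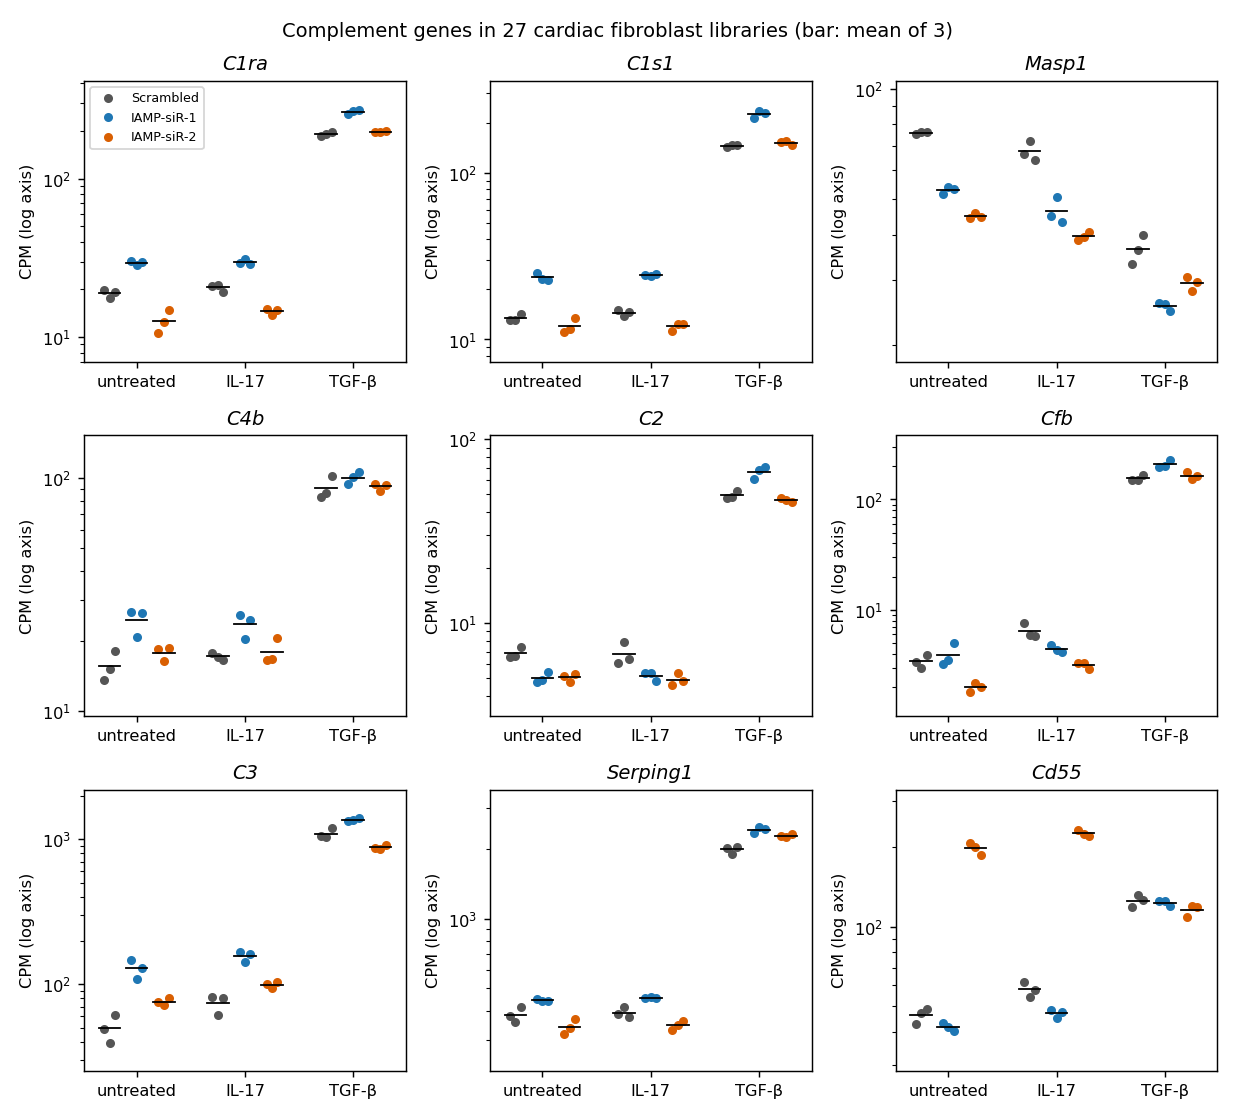
CPM of each complement gene on a log axis in the 27 CF libraries, by stimulus table and siRNA (points are libraries, black bars the mean of 3). Most genes sit far higher in the TGF-β table, Masp1 sits lower there, and Cd55 with IAMP-siR-2 lies at 187–232 CPM in untreated and IL-17 cells but at 109–120 CPM in TGF-β cells, beside Scrambled.

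The comparison made here set Scrambled CFs of the IL-17 or TGF-β table against untreated Scrambled CFs. The study itself used these libraries for the effect of IAMP knockdown within treated cells. Each stimulus has a table of its own, the TGF-β samples were deposited later and their columns are named in another way, so stimulus and table cannot be told apart in any comparison across tables. In bulk RNA, fewer cells of a type and less RNA per cell cannot be told apart either. Calls required a change of 2-fold or more (1 on the log2 scale) and an adjusted p no higher than 0.05 by the quasi-likelihood test of edgeR, adjusted after Benjamini and Hochberg. Across 21508 genes, 12.5% were called higher and 9.07% lower in TGF-β than in untreated Scrambled CFs. Among the 9 complement genes, 8 were called higher and 1 lower, with a median log2 fold change of 2.83 against 0.03 over all genes tested. Fibroblast markers summed to 8346–8514 CPM in untreated and 14147–14794 CPM in TGF-β Scrambled libraries. Endothelial markers summed to 62.2–66.6 and 104–106 CPM, and smooth muscle and pericyte markers to 104–118 and 75.8–81.2 CPM. Cardiomyocyte markers summed to 89.9–98.5 and 5.48–6.05 CPM, mostly from Tnnt2 alone. Tnnt2 was at 97.9 CPM in Scrambled untreated replicate 3 and at 4.95 CPM in Scrambled TGF-β replicate 3. The part of these shifts and of that of the macrophage markers in the result was not tested.

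Cfb, the alternative pathway protease, showed the largest fold. It was at 3.37, 2.98 and 3.90 CPM in the untreated Scrambled libraries and at 150.2, 151 and 165 CPM in the TGF-β Scrambled libraries. The log2 fold change was 5.49 ± 0.141 (SE, adjusted p = 1.51e-13). C3 stood at 48.9, 39.1 and 61.1 CPM untreated and at 1049, 1038 and 1203 CPM with TGF-β, a log2 fold change of 4.45 ± 0.154 (adjusted p = 1.00e-11). For both genes every TGF-β library lay far above every untreated library, and without the 5 libraries with hepatocyte transcripts the log2 fold changes were 5.58 and 4.61.

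The C1 proteases moved by nearly the same amount. C1ra was at 19.9, 17.7 and 19.3 CPM untreated and at 187, 190.2 and 197 CPM with TGF-β, and C1s1 at 13.2, 13.2 and 14.2 against 143, 147 and 148 CPM. Their log2 fold changes were 3.32 ± 0.0785 and 3.42 ± 0.0618, with adjusted p values of 1.61e-16 and 1.06e-21, and no library of one table overlapped the other. C2 and C4b, the substrates of C1s, were higher by log2 2.83 ± 0.0678 and 2.53 ± 0.117 (adjusted p = 1.04e-20 and 4.35e-11). C2 rose from 6.56–7.45 to 47.8–52.1 CPM and C4b from 13.6–18.1 to 83.0–103 CPM, also without overlap.

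The inhibitors were higher as well. Serping1 went from 356–414 to 1902–2046 CPM, a log2 fold change of 2.36 ± 0.0513 (adjusted p = 3.81e-20), and Cd55 from 43.0–48.6 to 118–132 CPM, a log2 fold change of 1.43 ± 0.0512 (adjusted p = 1.68e-17). Masp1, which encodes lectin pathway proteases, moved the other way. It stood at 75.3, 76.3 and 76.4 CPM untreated and at 33.3, 36.4 and 40.0 CPM with TGF-β, a log2 fold change of -1.07 ± 0.0529 (adjusted p = 8.16e-15), and again no libraries overlapped.

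**Figure D2:**
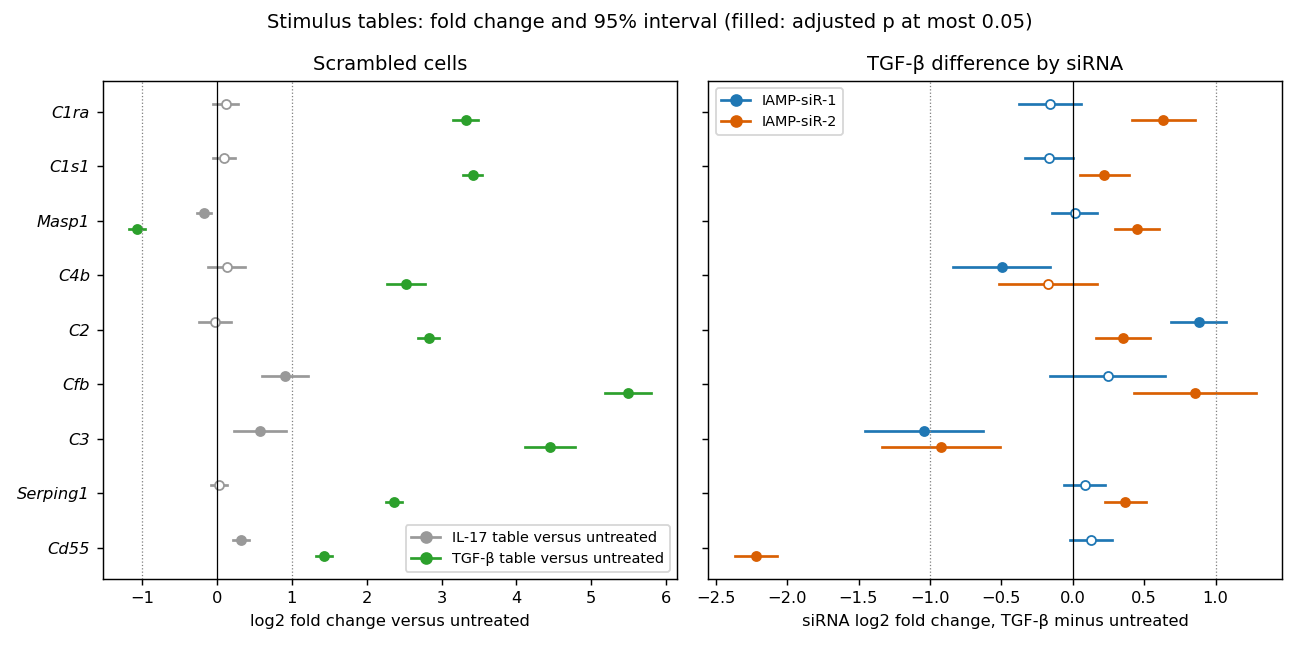
Left, log2 fold changes of the IL-17 and TGF-β tables against untreated cells in Scrambled CFs. Right, the log2 fold change of each siRNA in TGF-β cells minus that in untreated cells; points are estimates with 95% intervals, filled where the adjusted p was no higher than 0.05, and dotted lines mark the fold threshold, past which TGF-β places all 9 genes and, on the right, C3 with IAMP-siR-1 at -1.04 and Cd55 with IAMP-siR-2 at -2.22.

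Windows around gene starts, from 250 bases before to 50 after, were searched for TTGCNNAA, a form of the C/EBP motif. Those of C3, C1ra and C1s1, which held it, are shown here with the matches in capitals. RefSeq windows were found for 4 of the 9 genes on GRCm38.p6, namely C3 (chr17:57228087-57228386, minus strand), C1ra (chr6:124512371-124512670, plus strand), C1s1 (chr6:124542310-124542609, minus strand) and Cd55.
C3: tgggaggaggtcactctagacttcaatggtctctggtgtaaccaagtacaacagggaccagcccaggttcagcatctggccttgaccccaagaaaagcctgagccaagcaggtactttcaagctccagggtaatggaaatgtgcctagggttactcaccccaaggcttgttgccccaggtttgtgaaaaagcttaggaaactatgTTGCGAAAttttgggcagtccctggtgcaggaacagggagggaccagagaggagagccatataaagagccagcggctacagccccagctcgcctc
C1ra: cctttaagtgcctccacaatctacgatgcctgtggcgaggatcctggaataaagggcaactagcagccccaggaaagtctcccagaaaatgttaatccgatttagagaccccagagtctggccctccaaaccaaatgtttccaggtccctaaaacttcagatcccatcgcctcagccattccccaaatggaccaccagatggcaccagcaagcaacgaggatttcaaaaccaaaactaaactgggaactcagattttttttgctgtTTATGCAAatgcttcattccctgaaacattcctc
C1s1: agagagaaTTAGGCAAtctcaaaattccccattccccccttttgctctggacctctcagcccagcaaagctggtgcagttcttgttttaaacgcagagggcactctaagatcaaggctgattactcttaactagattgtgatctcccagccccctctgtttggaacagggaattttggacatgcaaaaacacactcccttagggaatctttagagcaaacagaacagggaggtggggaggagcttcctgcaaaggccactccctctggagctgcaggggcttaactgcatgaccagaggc
The motif was searched on both strands, and 3 of the 4 genes held it, at base 206 of the window in C3, 267 in C1ra and 9 in C1s1, against 10.8% of all 32851 promoter windows of this length. Cd55, which lacked it, was also higher in the TGF-β table, and C4b, C2, Cfb and Serping1, higher too, had no window. A relation of the motif to the higher levels was not tested. A strict form of the NF-κB consensus (1.63% of all windows), the AP-1 form TGANTCA (7.81%) and the hypoxia element core ACGTG (19.6%) matched in none of the 4. These are matches of letters only, and no binding was measured here.

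IL-17 gave smaller differences. In 21219 genes, 1.09% were called higher and 0.306% lower in IL-17 than in untreated Scrambled CFs. Of the complement genes, 0 of 9 were called by edgeR or by DESeq2, and 4 had an unadjusted p under 0.05 in edgeR, against 5014 of all 21219 genes. Cfb was at 7.55, 5.88 and 5.84 CPM with IL-17, above the 2.98–3.90 CPM of the untreated libraries, and its log2 difference of 0.90 ± 0.147 (adjusted p = 5.62e-05) fell short of the fold threshold. The Cfb difference was 1.01 without Scrambled untreated replicate 3 alone. It was 0.88 without all 5 libraries with liver transcripts, which include that replicate and leave 1 Scrambled IL-17 library. Cd55 was at 61.8, 54.3 and 57.7 CPM with IL-17 against 43.0–48.6 CPM, a log2 difference of 0.32 ± 0.0496 (adjusted p = 3.85e-05). Neither gene's groups overlapped.

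C3 differed from untreated cells by log2 0.57 ± 0.158 (adjusted p = 0.0293), or by 0.47 without the libraries with liver transcripts. It was at 81.1 and 80.4 CPM in the 2 IL-17 Scrambled libraries that held them and at 61.2 CPM in the third. The part of the liver transcripts in this difference was not tested. Masp1 differed by -0.18 (adjusted p = 0.0133) with all libraries and by -0.08 without the libraries with liver transcripts. In that fit 1 Scrambled IL-17 library remains and is assumed to vary like the other groups. C1ra, C1s1, C4b, C2 and Serping1 had log2 differences between -0.03 and 0.13, with adjusted p values from 0.454 to 0.948. Without the libraries with liver transcripts C2 turned to 0.25.

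The siRNA comparisons ask what loss of IAMP changes, and both siRNAs share the Scrambled libraries, so that their values are set side by side. Calls used the same adjusted p, with a threshold of 2-fold in untreated cells and 1.5-fold in IL-17 and TGF-β cells. In untreated CFs, 2.15% of 19669 genes were called higher and 2.61% lower with IAMP-siR-1, and 3.42% and 7.23% with IAMP-siR-2. Of the 9 complement genes, 1 was called higher and 0 lower with each, C3 with IAMP-siR-1 and Cd55 with IAMP-siR-2. Between the siRNAs, 6.65% of genes were called in either direction and 2 complement genes, C1ra and Cd55.

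Cd55 separated the siRNAs most. In untreated cells it was at 43.0, 47.1 and 48.6 CPM with Scrambled, at 43.1, 41.7 and 40.4 CPM with IAMP-siR-1 and at 208, 200.3 and 187 CPM with IAMP-siR-2. Every IAMP-siR-2 library was thus far above the others, while Scrambled and IAMP-siR-1 overlapped. The log2 fold changes against Scrambled were -0.15 ± 0.0495 (adjusted p = 0.0245) for IAMP-siR-1, or -0.11 (adjusted p = 0.107) without the libraries with liver transcripts, and 2.1 ± 0.0501 (adjusted p = 6.28e-15) for IAMP-siR-2, and IAMP-siR-2 exceeded IAMP-siR-1 by 2.25 ± 0.0505 (adjusted p = 5.16e-15). In IL-17 cells Cd55 was at 61.8, 54.3 and 57.7 CPM with Scrambled, 48.5, 45.1 and 47.7 CPM with IAMP-siR-1 and 232, 225 and 220.1 CPM with IAMP-siR-2, with log2 fold changes of -0.30 and 1.97 (adjusted p = 2.35e-05 and 8.00e-16).

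In TGF-β cells Cd55 was at 118, 132 and 126 CPM with Scrambled, 125, 125 and 119.9 CPM with IAMP-siR-1 and 109, 120.0 and 119 CPM with IAMP-siR-2, and every pair of groups overlapped. The log2 fold changes were -0.01 (95% interval -0.11 to 0.08) and -0.10 (adjusted p = 0.117). The IAMP-siR-2 effect in TGF-β cells differed from that in untreated cells by -2.22 ± 0.0715 (adjusted p = 2.69e-16), tested as an interaction, and the IAMP-siR-1 effect by 0.13 (adjusted p = 0.243). IAMP transcript itself was lowered less in TGF-β than in untreated cells. The difference was log2 0.73 ± 0.155 with IAMP-siR-1 and 1.03 ± 0.159 with IAMP-siR-2 (adjusted p = 0.00113 and 1.70e-05, same test). The part of this weaker knockdown in the Cd55 difference was not tested. Scrambled cells rose to 126 ± 6.84 CPM in the TGF-β table while IAMP-siR-2 cells went from 199 ± 10.5 to 116 ± 6.09 CPM (SD, n = 3).

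Cd55b, a neighbouring copy of Cd55 on chromosome 1, stood far lower in counts, and the counting could have split reads between the copies. It was at 0.469 ± 0.0707 CPM in untreated Scrambled, 0.554 ± 0.0257 with IAMP-siR-1 and 1.91 ± 0.0953 with IAMP-siR-2 (SD, n = 3), and at 2.37 ± 0.318, 2.40 ± 0.130 and 2.00 ± 0.15 CPM in the TGF-β table. The IAMP-siR-2 log2 fold change of Cd55b was 2.02 ± 0.225 in untreated cells, and its difference in TGF-β cells was -2.27 ± 0.251. In IL-17 cells Cd55b was at 0.389 ± 0.339 CPM with Scrambled and 2.00 ± 0.145 CPM with IAMP-siR-2, a log2 difference of 2.37 ± 1.64 that was not called (adjusted p = 0.297). The windows around both starts are shown because both copies were called with IAMP-siR-2 in untreated cells, with the longest run of bases they share in capitals, 24 bases long (Cd55 chr1:130462695-130462994 and Cd55b chr1:130422994-130423293, both minus strand, GRCm38.p6).
Cd55: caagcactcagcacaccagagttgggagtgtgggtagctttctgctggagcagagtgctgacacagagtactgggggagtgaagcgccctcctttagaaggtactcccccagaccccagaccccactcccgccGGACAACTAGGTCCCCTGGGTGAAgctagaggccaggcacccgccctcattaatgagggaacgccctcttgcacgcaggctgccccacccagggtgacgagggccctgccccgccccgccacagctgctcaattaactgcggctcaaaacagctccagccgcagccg
Cd55b: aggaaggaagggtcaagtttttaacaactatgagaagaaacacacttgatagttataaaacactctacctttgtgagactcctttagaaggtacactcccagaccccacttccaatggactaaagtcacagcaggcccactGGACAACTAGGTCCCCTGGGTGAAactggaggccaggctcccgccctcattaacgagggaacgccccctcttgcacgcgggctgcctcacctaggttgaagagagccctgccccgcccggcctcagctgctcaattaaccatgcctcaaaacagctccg
Both hold matches on the minus strand to GGGCGG, the core of the SP1 motif, at bases 174 and 244 of the Cd55 window and 182 and 254 of the Cd55b window, as do 35.7% of all windows on one strand or the other.

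C3 lay above Scrambled with both siRNAs in untreated cells. It stood at 48.9, 39.1 and 61.1 CPM with Scrambled, at 146, 109 and 130.3 CPM with IAMP-siR-1 and at 75.4, 72.2 and 79.8 CPM with IAMP-siR-2, without overlap between any of them. The log2 fold changes were 1.37 ± 0.184 (adjusted p = 0.00110) and 0.61 ± 0.183 (adjusted p = 0.0320), and IAMP-siR-2 was below IAMP-siR-1 by -0.76 ± 0.181 (adjusted p = 0.0133). Without the libraries with liver transcripts they were 1.55 and 0.78.

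In IL-17 cells, 5.58% of 19906 genes were called higher and 7.97% lower with IAMP-siR-1, and 8.06% and 13.7% with IAMP-siR-2. C3 was at 166, 143 and 160.4 CPM with IAMP-siR-1 and 100.4, 93.3 and 104 CPM with IAMP-siR-2, all above the 61.2–81.1 CPM of Scrambled, with log2 fold changes of 1.08 ± 0.122 (adjusted p = 0.000346) and 0.43 ± 0.121 (adjusted p = 0.0233). The second value was 0.72 without the libraries that held liver transcripts, a fit with 1 Scrambled IL-17 library left, replicate 2. Of the complement genes, IAMP-siR-1 gave 2 calls higher, C3 and C1s1, and 0 lower, and IAMP-siR-2 gave 1 higher, Cd55, and 2 lower, Cfb and Masp1. In the fit with 1 Scrambled library left, C2 was -0.60 and Masp1 -0.64 with IAMP-siR-1, and C2 was -0.65 with IAMP-siR-2. Leaving out 1 library added Cfb at -0.60 for IAMP-siR-1, without IAMP-siR-1 IL-17 replicate 1 or Scrambled IL-17 replicate 2 or 3. It added Masp1 at -0.61 without IAMP-siR-1 IL-17 replicate 2. Without the 5 libraries with liver transcripts the Cfb value was -0.41.

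In TGF-β cells, 2.45% of 19891 genes were called higher and 1.91% lower with IAMP-siR-1, and 2.07% and 5.44% with IAMP-siR-2. The complement genes gave 1 call with IAMP-siR-1, C1s1, and 0 with IAMP-siR-2 in edgeR and in DESeq2. With IAMP-siR-2, 4 of the 9 had an unadjusted p under 0.05 in edgeR, against 7550 of all 19891 genes. C3 was at 1338, 1356 and 1410 CPM with IAMP-siR-1 and 876, 864 and 910.1 CPM with IAMP-siR-2, above and below the 1038–1203 CPM of Scrambled. Its log2 fold changes were 0.33 ± 0.0468 (adjusted p = 4.59e-05) and -0.30 ± 0.0469 (adjusted p = 0.000103).

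The siRNA effect on C3 was compared between the tables as an interaction. The part of the weaker IAMP knockdown in TGF-β cells in this comparison was not tested. The difference from untreated cells was -1.04 ± 0.190 for IAMP-siR-1 (adjusted p = 0.00145, called) and -0.92 ± 0.191 for IAMP-siR-2 (adjusted p = 0.00221, below the fold threshold). The first call was lost, with values of -0.93, -0.89 and -0.97, without IAMP-siR-1 untreated replicate 1, Scrambled untreated replicate 2 or Scrambled TGF-β replicate 3. The second became a call without Scrambled untreated replicate 3 alone (-1.07) or without all 5 libraries with liver transcripts (-1.10). Over all genes, 2.36% and 5.09% had a called difference of the siRNA effect between TGF-β and untreated cells, for IAMP-siR-1 and IAMP-siR-2, and of the complement genes 1 did for each, C3 and Cd55.

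C1ra and C1s1 lay higher with IAMP-siR-1 than with IAMP-siR-2 in each table. In untreated cells C1ra was at 30.3, 28.4 and 29.8 CPM with IAMP-siR-1 and at 10.7, 12.4 and 14.8 CPM with IAMP-siR-2, above and below the 17.7–19.9 CPM of Scrambled. The log2 fold changes were 0.64 ± 0.0890 and -0.59 ± 0.0903 (adjusted p = 1.99e-05 and 3.47e-05), and the siRNAs differed by -1.23 ± 0.0906 (adjusted p = 8.87e-09). C1s1 was at 25.2, 23.0 and 22.6 CPM with IAMP-siR-1 and 11.1, 11.6 and 13.5 CPM with IAMP-siR-2 against 13.2–14.2 CPM, with log2 fold changes of 0.81 ± 0.0789 (adjusted p = 3.46e-07) and -0.16 ± 0.0794 (adjusted p = 0.102). The siRNAs differed in C1s1 by -0.97 ± 0.0793, which passed 1 in size without IAMP-siR-2 untreated replicate 3 (-1.06) or IAMP-siR-1 untreated replicate 3 (-1.01).

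In IL-17 cells 15.7% of genes were called between the siRNAs, and 4 complement genes were, with C1ra at -1.03 ± 0.0624, C1s1 at -1.02 ± 0.0606, C3 at -0.65 ± 0.120 and Cd55 at 2.27 ± 0.0440. In TGF-β cells 3.96% of genes were called between the siRNAs and 1 complement gene was, C3 at -0.63 ± 0.0470. C1ra there was at 255, 269 and 271 CPM with IAMP-siR-1 and at 198, 197 and 199 CPM with IAMP-siR-2, and C1s1 at 213, 235 and 229 against 153, 156 and 147 CPM. With IAMP-siR-1 both lay above Scrambled by log2 0.48 ± 0.0337 and 0.65 ± 0.0392, and with IAMP-siR-2 both had a log2 difference of 0.07 (95% intervals -0.01 to 0.14 and -0.01 to 0.16). C1s1 between the siRNAs, at -0.57, became a second call without IAMP-siR-2 TGF-β replicate 2 (-0.59) or IAMP-siR-1 TGF-β replicate 1 (-0.61).

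C4b stayed under the fold threshold with both siRNAs. It was at 26.6, 20.7 and 26.3 CPM against 13.6, 15.1 and 18.1 CPM in untreated Scrambled cells, a log2 fold change of 0.66 ± 0.114 (adjusted p = 0.000475), and at 18.4, 16.4 and 18.7 CPM with IAMP-siR-2, which overlapped Scrambled (0.19 ± 0.114, adjusted p = 0.200, or 0.31 with an adjusted p of 0.0195 without the libraries with liver transcripts). The 2 siRNAs differed by -0.46 ± 0.113 (adjusted p = 0.00452). In TGF-β cells the log2 fold changes were 0.16 (adjusted p = 0.131) and 0.04 (adjusted p = 0.774), and all 3 groups overlapped.

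C2 and Masp1 lay below Scrambled with both siRNAs in untreated cells. C2 was at 4.79, 4.93 and 5.43 CPM with IAMP-siR-1 and at 5.15, 4.81 and 5.27 CPM with IAMP-siR-2, below the 6.56–7.45 CPM of Scrambled, with log2 fold changes of -0.45 ± 0.102 and -0.44 ± 0.102 (adjusted p = 0.00193 and 0.00162) and a difference between siRNAs of 0.01 (95% interval -0.21 to 0.23). In TGF-β cells C2 lay above Scrambled with IAMP-siR-1, at 60.4, 68.2 and 70.2 CPM against 47.8–52.1 CPM (0.44 ± 0.0556, adjusted p = 1.50e-05), and the change from untreated cells was 0.88 ± 0.0923 (adjusted p = 1.52e-07). Masp1 was at 51.6, 54.0 and 53.4 CPM with IAMP-siR-1 and 44.3, 45.8 and 44.6 CPM with IAMP-siR-2, below the 75.3–76.4 CPM of Scrambled without overlap. Its log2 fold changes were -0.52 ± 0.0371 and -0.76 ± 0.0372 (adjusted p = 7.79e-09 and 2.83e-11), and it lay below Scrambled with both siRNAs in IL-17 cells (-0.54 and -0.76) and in TGF-β cells (-0.50 and -0.29).

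Cfb and Serping1 completed the list. Cfb was at 3.27, 3.49 and 4.97 CPM with IAMP-siR-1, overlapping the 2.98–3.90 CPM of untreated Scrambled cells, and at 1.79, 2.19 and 2.01 CPM with IAMP-siR-2, below them (-0.78 ± 0.170, adjusted p = 0.00103). The siRNAs differed by -0.97 ± 0.171, past 1 in size when IAMP-siR-2 untreated replicate 2, IAMP-siR-1 untreated replicate 1 or IAMP-siR-1 untreated replicate 2 was left out (-1.03, -1.08 and -1.04). In IL-17 cells Cfb was at 4.80, 4.33 and 4.13 CPM with IAMP-siR-1 and 3.28, 3.33 and 2.92 CPM with IAMP-siR-2, both below the 5.84–7.55 CPM of Scrambled (log2 -0.54 and -1.01, adjusted p = 0.00147 and 1.88e-06). Without the libraries with liver transcripts, which leaves 1 Scrambled IL-17 library, the IAMP-siR-1 value was -0.41. In TGF-β cells Cfb was at 197, 199.9 and 229 CPM with IAMP-siR-1, above the 150.2–165 CPM of Scrambled (0.44, adjusted p = 0.000433). Serping1 moved by 0.21 and -0.17 in untreated cells (adjusted p = 0.0134 and 0.0275), with -0.12 (adjusted p = 0.0755) for IAMP-siR-2 without the libraries with liver transcripts, and by 0.30 and 0.21 in TGF-β cells (adjusted p = 1.07e-05 and 0.000238).

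**Figure D3:**
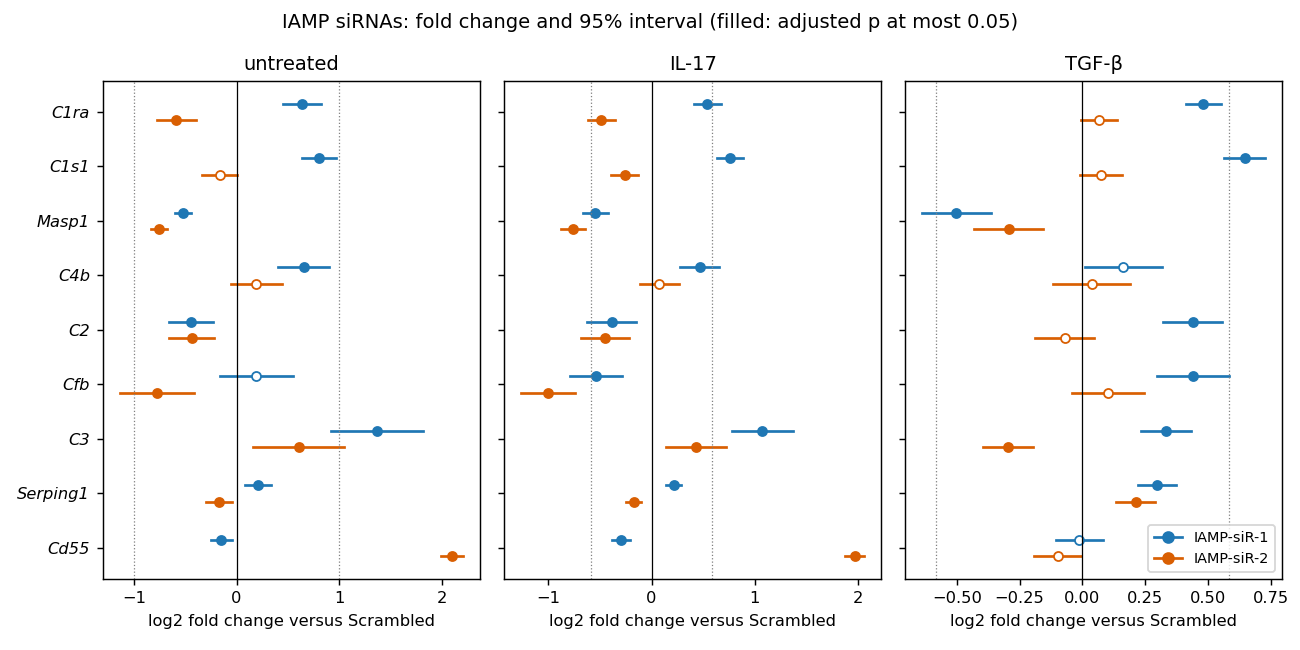
Log2 fold change of each complement gene with IAMP-siR-1 or IAMP-siR-2 against Scrambled in untreated, IL-17 and TGF-β CFs; points are estimates with 95% intervals, filled where the adjusted p was no higher than 0.05, and dotted lines mark the threshold of 2-fold or 1.5-fold. C1ra and C1s1 lie right of 0 with IAMP-siR-1 in all 3 tables, Masp1 lies left of 0 with both siRNAs, and Cd55 lies near 2 with IAMP-siR-2 in untreated and IL-17 cells only.

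Between IL-17 and untreated cells the siRNA effects were compared in the same way. Differences of the siRNA effect between IL-17 and untreated cells were called for 0.189% of all genes with IAMP-siR-1 and 0.165% with IAMP-siR-2. They were called for 0 of the 9 complement genes in edgeR and in DESeq2. Before adjustment, 2 and 0 complement genes had p under 0.05 in edgeR, against 2517 and 2055 of all 21219 genes. The nearest was Cfb with IAMP-siR-1, at -0.73 ± 0.208 (95% interval -1.16 to -0.30, adjusted p = 0.0696).

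Marker sums also moved with the siRNAs. Fibroblast markers summed to 8346–8514 CPM in untreated Scrambled cells, 11048–11430 with IAMP-siR-1 and 7754–8005 with IAMP-siR-2, and smooth muscle and pericyte markers to 104–118, 67.9–74.2 and 52.9–65.1 CPM. Macrophage markers were at 57.2–61.2, 58.1–61.4 and 74.5–79.0 CPM and endothelial markers at 62.2–66.6, 56.2–59.6 and 64.1–67.0 CPM. Cardiomyocyte markers, nearly all of the sum from Tnnt2 alone, were at 89.9–98.5, 42.1–46.7 and 27.7–32.4 CPM. The part of all these marker sums in the siRNA results was not tested.

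A list of 46 other complement genes gave a mixed picture. In the TGF-β comparison of Scrambled cells, 38 were tested, 8 were called higher and 7 lower, against 12.5% and 9.07% of all genes, with a median log2 fold change of 0.09. Clusterin (Clu), an inhibitor of the terminal complex, was higher, from 27.7 ± 3.24 to 95.4 ± 2.98 CPM (log2 1.77 ± 0.0813). C1qa, C1qb and C1qc, which make the recognition unit of C1, were lower by log2 -1.33 to -2.43, each with a mean of at most 2.60 CPM in every CF group. The copies C1rb, C1s2 and C4a, which can share reads with C1ra, C1s1 and C4b, were higher by log2 3.26 ± 0.0899, 2.23 ± 0.270 and 1.68 ± 0.230.

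With the siRNAs, the other list gave fewer calls. In untreated cells 31 were tested, 1 was called higher and 1 lower with IAMP-siR-1, against 2.15% and 2.61% of all genes, and 2 higher and 2 lower with IAMP-siR-2, against 3.42% and 7.23%. C7, a component of the terminal complex, was higher with both (log2 2.52 ± 0.281 and 3.14 ± 0.283) from a very low level of 0.203 ± 0.0457 CPM in Scrambled (SD, n = 3). Colec11, a soluble lectin that binds MASPs, was lower with both (-1.89 ± 0.223 and -1.83 ± 0.222) from 3.98 ± 0.147 CPM. In IL-17 cells 31 were tested, 1 was called higher and 3 lower with IAMP-siR-1, against 5.58% and 7.97% of all genes, and 1 higher and 9 lower with IAMP-siR-2, against 8.06% and 13.7%. C7 was called there with IAMP-siR-2 (log2 3.58 ± 0.881) but not with IAMP-siR-1 (2.52 ± 0.870, adjusted p = 0.0548). C1rl, a protease related to C1r, was higher with IAMP-siR-1 there (0.75 ± 0.0748), as it was in TGF-β cells (0.62 ± 0.0614).

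Over the 27 CF libraries, the log2 CPM of C3, C4b, C2, Cfb, C1ra, C1s1 and Serping1 were related to each other with Pearson's r from 0.94 to 0.996. Cd55 had r from 0.14 to 0.30 with these 7 and Masp1 from -0.85 to -0.74. The libraries share 3 tables, 1 of which stands apart in level. Of 13321 genes screened, the one nearest to C1ra was its copy C1rb (r = 0.998), to Cfb the class I gene H2-Q6 (0.994), to C2 Apod (0.995), to C3 Inava (0.986), to Serping1 and C4b Tapbp (0.996) and Mfap4 (0.991), and to Cd55 Agtrap (0.961).

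In hearts the same genes stood in a different order. Serping1 was at 52.6 ± 7.68 RPKM, C3 at 16.7 ± 2.24, C1s1 at 3.60 ± 0.521, C1ra at 2.86 ± 0.201, C4b at 2.12 ± 0.551, Masp1 at 1.92 ± 0.270 and Cd55 at 1.31 ± 0.239 RPKM in Het (SD, n = 4). Cfb at 0.136 ± 0.117 and C2 at 0.117 ± 0.0435 RPKM were the lowest and did not differ beyond their spread, nor did C4b and Masp1. Cardiomyocyte markers summed to at least 41207 CPM and fibroblast markers to 514–776 CPM in a heart. Gm20547, a read-through transcript over Cfb and C2, averaged 1.80 ± 0.241 CPM over the Het and 1.02 ± 0.811 CPM over the KO hearts, above C2, and reads could have been shared among the 3.

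Between KO and Het, edgeR called 0% of 16675 genes, and 0 of the 8 complement genes that passed the low-count filter. Before adjustment, 601 genes had p under 0.05 and 0 of them were complement genes of this list, and DESeq2 passed 5 genes by adjusted p, 0 of them in this list. C3 was at 91.9, 69.0, 94.4 and 88.3 CPM in Het and 85.6, 98.0, 90.6 and 85.6 CPM in KO, and the groups overlapped (log2 0.07, 95% interval -0.14 to 0.28). Serping1 was at 113, 103, 129.6 and 143 CPM in Het and 121, 123, 122 and 121 CPM in KO (-0.01, 95% interval -0.21 to 0.19).

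For the other tested genes the 95% intervals of the log2 difference ran from -0.11 to 0.23 for C1ra, -0.15 to 0.30 for C1s1, -0.12 to 0.30 for Masp1, -0.45 to 0.13 for Cd55, -0.26 to 0.50 for C4b and -0.36 to 1.04 for C2. The interval of C2, which had 5 to 18 counts in a heart, includes a change of the size that would be called, and those of the others exclude it. Cfb did not pass the filter, with 9, 8, 19 and 0 counts in Het and 5, 26, 60 and 4 counts in KO. These counts overlapped, and the heart with none still allows up to 3.

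**Figure D4:**
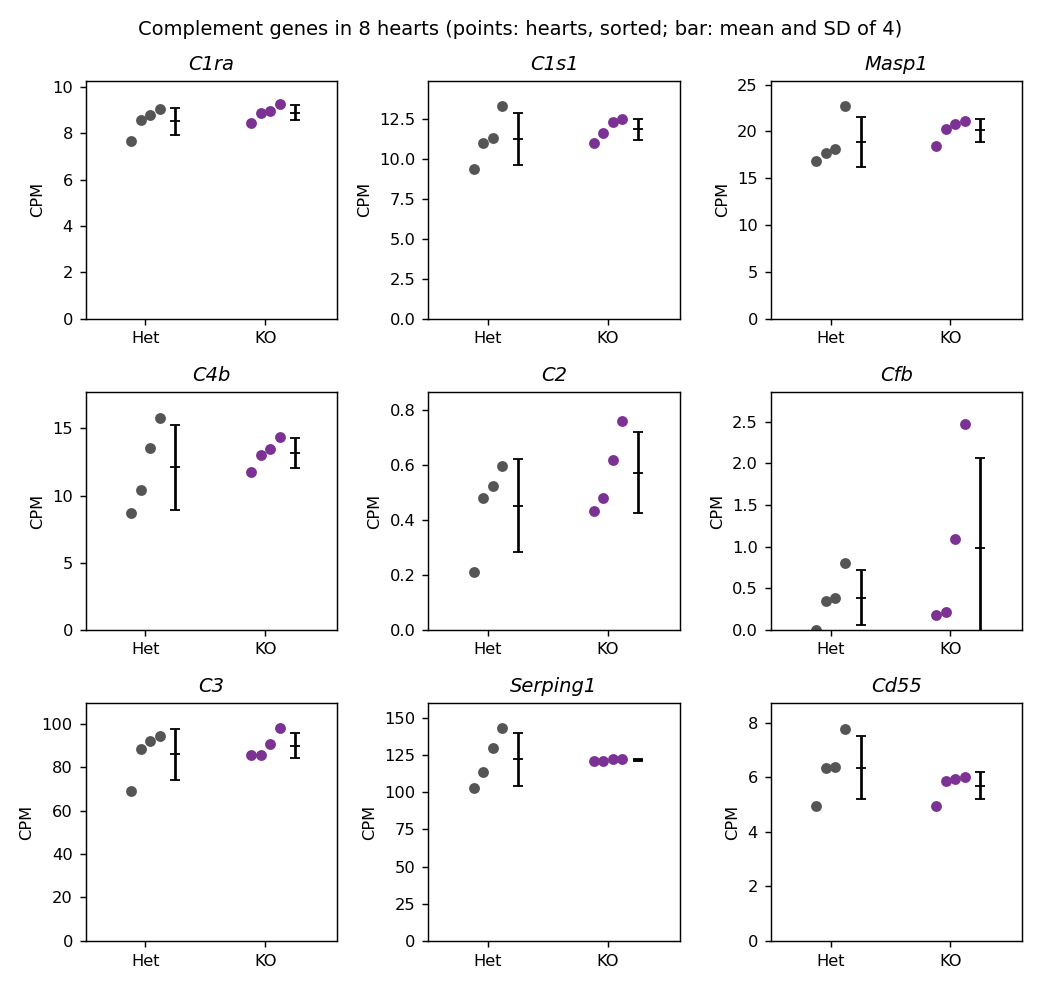
CPM of each complement gene in the 4 Het and 4 KO hearts (points are hearts, sorted by value, and bars give the mean and SD). The groups overlap for all 9 genes, and Cfb and C2 lie at or below 2.47 CPM. The share of all genes whose Het and KO hearts overlap was not determined.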

How the data were processed

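RNA-Seq of 27 CF libraries and 8 hearts was analysed from 4 tables. Per the study's methods, the authors used Cutadapt 3.7 for trimming, FastQC 0.11.9 for quality, HISAT2 2.2.1 for alignment to the GRCm38 build and StringTie 2.1.4 for quantification. The CF tables, as deposited by the authors, hold estimated counts made by StringTie without normalization, in which 1 read pair is worth about 6. The heart table, as deposited by the authors, holds raw counts per gene without normalization, in which 0 allows up to 3 counts. The annotation release, the strand setting and the step to whole numbers are not given in the sources used here.

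In edgeR 4.0.16 (R 4.3.3), the estimated counts and counts were filtered with filterByExpr, TMM normalized and fitted by robust quasi-likelihood, 9 libraries per CF table, 18 for stimuli and interactions and 8 for hearts, with Benjamini-Hochberg adjustment over all genes. Standard errors were taken from each estimate and its F statistic. The procedure was tested on simulated data. CPM used TMM factors over all CF libraries or all hearts, and RPKM the GENCODE vM21 exon length, which matched 55141 of 55487 identifiers. The oligo codes of the untreated and IL-17 columns were matched to siRNA numbers through the TGF-β labels, and heart columns to genotypes only. Genes are named as members, as their copies, as other complement genes past the thresholds, and as the genes of highest Pearson's r with a mean of at least 1 CPM (log2 of CPM plus 1). Members, lists and tests were chosen with earlier results of these data known. Alternatives were DESeq2 1.42.0, RLE factors, no filter, division by 6, other sets of libraries, a replicate block, leaving out single libraries and another fold threshold. Leaving out 5 libraries with hepatocyte transcripts was chosen after seeing the data.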

Additional observations from a re-analysis of the deposited data

Results flagged for a closer look

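Among the complement genes in hearts, 1 KO heart stood below the other 3 in Cd55, at 4.95 CPM against 5.84–6.00 CPM, farther than a test for a single outlying value allows at the 95% level. Such a test marks about 1 in 20 groups by chance. The Het hearts ranged from 4.93 to 7.77 CPM.

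The effect of IAMP-siR-1 on C3 differed between TGF-β and untreated CFs by -1.04 on the log2 scale (adjusted p = 0.00145, edgeR's quasi-likelihood interaction test), with every IAMP-siR-1 library above every Scrambled library in both tables. The effect of IAMP-siR-2 on Cd55 differed by -2.22 (adjusted p = 2.69e-16), with 3 of 3 libraries above Scrambled in untreated cells and overlap in TGF-β cells. In both, stimulus and table cannot be told apart, and IAMP knockdown was weaker in TGF-β than in untreated cells.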

How the results depend on the processing

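The number of complement genes called was within 1.5 times of the reported one under DESeq2, RLE factors, no low-count filter, division by 6, a single fit of all CF libraries and only the groups compared. A replicate block left it at 9 for TGF-β against untreated Scrambled cells and changed no other count, and 0 of 9 same-numbered pairs in each CF table had r above 0.1, so the numbers are not known to pair the libraries. With the other fold threshold (1.5-fold for 2-fold and the reverse) the counts were 4 and 5 for IAMP-siR-1 and IAMP-siR-2 in untreated cells and 5 between them, 1 for IAMP-siR-1 in IL-17 cells, 0 for IAMP-siR-1 and 0 between siRNAs in TGF-β cells, 1 for IL-17 against untreated, and 2 and 4 for the TGF-β interactions. Without the 5 libraries with hepatocyte transcripts the count was 2 for the TGF-β interaction of IAMP-siR-2. No count is given for IL-17 cells, where 1 Scrambled library then remains. Leaving out single libraries gave 0 to 1 for IL-17 against untreated, 1 to 2 between siRNAs in TGF-β cells, 0 to 1 and 1 to 2 for the TGF-β interactions. The shares of all genes called under these other settings were not determined, so these counts cannot be set against a background. The causes were not tested.

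Signs turned for values near 0 that passed no threshold. In the IL-17 interaction of IAMP-siR-2, Masp1 was -0.0015 in a single fit, -0.0067 in DESeq2, -0.0017 without a filter, -0.013 with only the groups compared, -0.0047 with RLE and -0.094 without the 5 libraries, Serping1 was -0.0050 in DESeq2, -0.011 with only the groups compared, -0.0029 with RLE and -0.13 without the 5 libraries, and C2 was 0.0056 after division by 6. In that of IAMP-siR-1, Serping1 was -0.0043 with only the groups compared and -0.13 without the 5 libraries, and C2 -0.22 without them. C2 was 0.25 without them for IL-17 against untreated, and Masp1 was -0.0024 without a filter in the TGF-β interaction of IAMP-siR-1. Leaving out single libraries turned 20 values, some of them already named above. With single libraries left out, the values in KO against Het hearts ran from -0.0042 to 0.17 for C1s1, -0.025 to 0.11 for C3, -0.0069 to 0.28 for C4b, -0.083 to 0.079 for Serping1. In the comparison IL-17 interaction, IAMP-siR-1, they ran from -0.084 to 0.0056 for C1s1, -0.016 to 0.18 for C2, -0.095 to 0.024 for Masp1, -0.051 to 0.058 for Serping1. In the comparison IL-17 interaction, IAMP-siR-2, they ran from -0.14 to 0.0055 for C1s1, -0.079 to 0.12 for C2, -0.026 to 0.055 for Masp1, -0.049 to 0.071 for Serping1. In the comparison IL-17 against untreated in Scrambled cells, they ran from -0.15 to 0.049 for C2, -0.025 to 0.084 for Serping1. In the comparison untreated cells, IAMP-siR-2 against IAMP-siR-1, they ran from -0.028 to 0.058 for C2. In the comparison IL-17 cells, IAMP-siR-2 against Scrambled, they ran from -0.037 to 0.12 for C4b. In the comparison TGF-β cells, IAMP-siR-2 against Scrambled, they ran from -0.022 to 0.13 for C4b. In the comparison TGF-β cells, IAMP-siR-1 against Scrambled, they ran from -0.047 to 0.030 for Cd55. In the comparison untreated cells, IAMP-siR-1 against Scrambled, they ran from -0.011 to 0.31 for Cfb. In the comparison TGF-β interaction, IAMP-siR-1, they ran from -0.050 to 0.078 for Masp1.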
